A study of Mus musculus with 12 samples.

Results

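The endothelial genes are 37 protein-coding genes known for their use in the cells that line blood and lymphatic vessels. They were taken from a list of symbols that was chosen with earlier results of these data known. All 37 were found among the 53392 gene identifiers of the deposited tables. They fall into 7 genes of cell junctions and the cell surface, 10 receptors, 5 secreted or presented factors, 10 transcription factors and 5 genes of vessel function. Their levels were measured by RNA sequencing of polyadenylated RNA in 12 libraries from mouse embryos of the 129S4 background, in 4 groups of 3. Palatal shelf mesenchyme at E13.5 came from Pdgfra+/+ embryos, called wild-type below, and from PdgfraPI3K/PI3K embryos, called PI3K, which are homozygous for an altered allele of the receptor gene Pdgfra. Maxillary process mesenchyme at E11.5 came from Srsf3fl/fl;Wnt1-Cre+/+ embryos, the controls, and from Srsf3fl/fl;Wnt1-Cre+/Tg embryos, which the labels call cKO. Both of these groups are homozygous for a floxed allele of Srsf3, a splicing factor gene, and differ by the Wnt1-Cre transgene. Per the labels the overlying ectoderm was digested off with trypsin, and they do not say whether a library holds 1 embryo or a pool. The palatal shelf libraries go against complete removal: 10 ectoderm markers summed to 365 to 889 TPM in them, with none of the 10 at 0, against 1.66 to 18.1 TPM in the maxillary process libraries.

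Endothelial cells are the single layer of cells that carries the blood. They sense vascular endothelial growth factors through the kinases encoded by Kdr, Flt1 and Flt4 and angiopoietins through Tek, hold together through VE-cadherin (Cdh5) and claudin-5 (Cldn5), and are specified by ETS, SOXF, GATA and TAL transcription factors. In the face they derive from mesoderm, whereas most of the surrounding mesenchyme derives from the neural crest, the lineage in which Wnt1-Cre is active. Vessels therefore run through both tissues, and the mesenchyme, through secreted factors, is one of the sources of the signals they receive.

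Wild-type and PI3K libraries held 30.5 to 37.4 M estimated counts (M, megacounts), and maxillary process libraries 15.9 to 27.9 M. The genes altered by the design were looked at first. Srsf3 was at 597, 578 and 547 CPM in controls and at 468, 669 and 622 CPM under the cKO label, a log2 fold change of 0.03 (SE 0.14; edgeR adjusted p = 0.9539). CPM is the read count scaled by the library total and a composition factor. The gene total thus did not separate those groups, which are called by their label here, and a gene total would not show the loss of a few exons. Pdgfra was at 503, 470 and 501 CPM in the wild-type and 452, 480 and 562 CPM in the PI3K shelves. In TPM, which is scaled for transcript length, it was at 139.8, 130.3 and 144.5 in wild-type and 186.0, 200.5 and 243.1 in PI3K. The groups thus overlapped in CPM and were separate in TPM, and the reason was not tested. Srsf3 and Pdgfra are the targets of the design and are not endothelial genes.

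Levels are compared between genes in TPM, which is scaled for transcript length, as mean ± SD of 3 libraries. All 8 genes taken as defining endothelial markers (Pecam1, Cdh5, Kdr, Flt1, Tek, Tie1, Emcn and Cldn5) were present in every one of the 12 libraries, although the labels give the tissue as mesenchyme. The level of an endothelial gene in such tissue depends on how many endothelial cells it holds and on how much RNA each of them carries, and the 2 cannot be told apart in bulk RNA. Summed over the 37 genes, TPM was 835, 758 and 833 in wild-type, 857, 831 and 913 in PI3K, 641, 651 and 591 in control and 1448, 882 and 768 in the libraries labelled cKO. The sums of the libraries labelled cKO all lay above those of the controls, and library 1 labelled cKO stood far above the other 2. Wild-type and PI3K sums overlapped. Palatal shelf and maxillary process values were deposited in separate tables, so that a level is set across them with that limit.

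**Figure D1:**
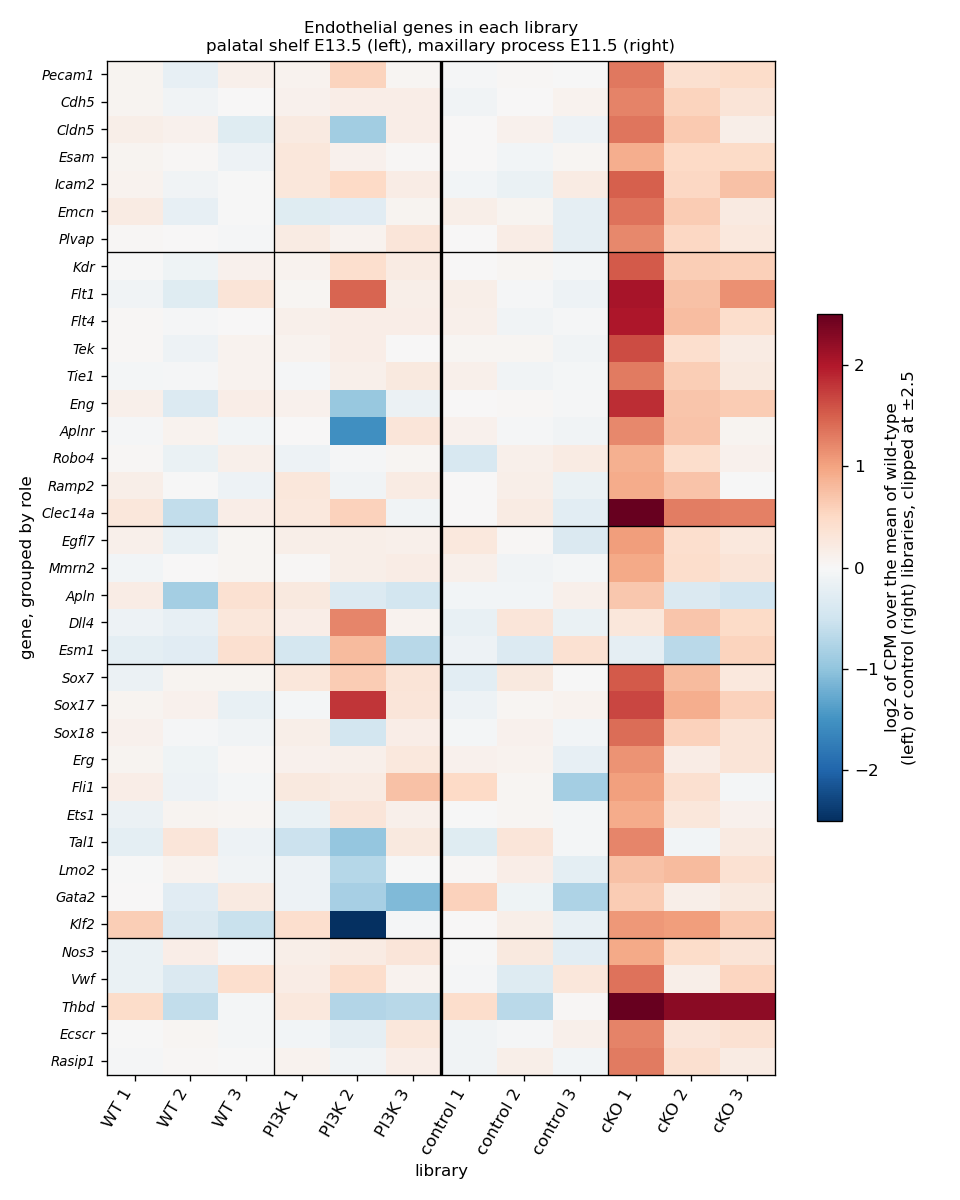
Heat map of the 37 endothelial genes (rows, ordered by role) in the 12 libraries (columns). Colour is the log2 ratio of a library's CPM to the mean of the reference group of its tissue, wild-type or control. Library 1 labelled cKO is above the control mean in nearly every row, and PI3K library 2 has rows both far above and far below the wild-type mean.

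Among the genes of junctions and the cell surface, VE-cadherin was the most abundant in the palatal shelf. Cdh5, the adhesion molecule of endothelial adherens junctions, was at 44.96 ± 4.34 TPM in the control maxillary process and 69.8 ± 3.06 TPM in the wild-type palatal shelf. Plvap, which builds the diaphragms of endothelial fenestrae and caveolae, was at 47.9 ± 4.99 TPM in the control maxillary process and 42.6 ± 0.241 TPM in the wild-type palatal shelf. Emcn, a surface sialomucin of veins and capillaries, was at 27.2 ± 0.703 TPM in the control maxillary process and 42.2 ± 5.62 TPM in the wild-type palatal shelf. Plvap and Cdh5 had the highest means of the 7 in the maxillary process and did not differ there beyond their spread. Pecam1, an adhesion molecule spread over endothelial contacts, was at 24.97 ± 1.06 TPM in the control maxillary process and 38.9 ± 4.62 TPM in the wild-type palatal shelf. Cldn5, the claudin of endothelial tight junctions, was at 20.8 ± 1.13 TPM in the control maxillary process and 22.6 ± 3.27 TPM in the wild-type palatal shelf. Esam, a junctional immunoglobulin-domain adhesion molecule, was at 13.3 ± 0.918 TPM in the control maxillary process and 20.3 ± 1.27 TPM in the wild-type palatal shelf. Icam2 was the least abundant of the group in both tissues. Icam2, an adhesion ligand for leukocyte integrins, was at 9.22 ± 1.64 TPM in the control maxillary process and 15.5 ± 0.315 TPM in the wild-type palatal shelf.

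The 10 receptors spanned a wider range. Ramp2, the partner that turns Calcrl into an adrenomedullin receptor, was at 30.6 ± 2.53 TPM in the control maxillary process and 63.1 ± 5.83 TPM in the wild-type palatal shelf. Kdr, the main signalling receptor for vascular endothelial growth factor A, was at 22.0 ± 0.406 TPM in the control maxillary process and 23.7 ± 1.97 TPM in the wild-type palatal shelf. Aplnr, the receptor for apelin, was at 22.7 ± 1.21 TPM in the control maxillary process and 32.96 ± 1.79 TPM in the wild-type palatal shelf. Ramp2 stood above the other 9 in both tissues. Eng, a co-receptor for TGF-beta family ligands, was at 17.6 ± 0.542 TPM in the control maxillary process and 38.8 ± 6.19 TPM in the wild-type palatal shelf. Tie1, an orphan relative of the angiopoietin receptor, was at 14.5 ± 1.13 TPM in the control maxillary process and 23.8 ± 1.51 TPM in the wild-type palatal shelf. Tek, the angiopoietin receptor itself, was at 6.69 ± 0.0702 TPM in the control maxillary process and 12.6 ± 0.963 TPM in the wild-type palatal shelf. Tek was thus at a lower level than Tie1 in every group. Flt1, a high-affinity receptor that limits free vascular endothelial growth factor, was at 9.37 ± 0.764 TPM in the control maxillary process and 13.1 ± 3.96 TPM in the wild-type palatal shelf. Flt4, the receptor for vascular endothelial growth factor C, was at 8.17 ± 0.609 TPM in the control maxillary process and 9.09 ± 0.193 TPM in the wild-type palatal shelf. Robo4, an endothelial Roundabout receptor, was at 7.61 ± 1.82 TPM in the control maxillary process and 9.73 ± 1.07 TPM in the wild-type palatal shelf. Clec14a had the lowest level of the 10 in both tissues. Clec14a, a lectin-domain receptor of the endothelial surface, was at 2.31 ± 0.297 TPM in the control maxillary process and 8.09 ± 2.47 TPM in the wild-type palatal shelf.

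Of the secreted or presented factors, 1 dominated. Egfl7, a secreted matrix protein of endothelial cells, was at 54.4 ± 8.26 TPM in the control maxillary process and 64.7 ± 9.44 TPM in the wild-type palatal shelf. Mmrn2, an endothelial matrix protein that binds Clec14a, was at 11.8 ± 2.72 TPM in the control maxillary process and 10.5 ± 0.405 TPM in the wild-type palatal shelf. Apln, the peptide ligand of Aplnr made by tip cells, was at 4.801 ± 0.5997 TPM in the control maxillary process and 14.7 ± 5.89 TPM in the wild-type palatal shelf. Egfl7 was the most abundant of all 37 genes when averaged over the 12 libraries, at 68.5 TPM. Dll4, the Notch ligand of tip cells and arteries, was at 3.79 ± 0.682 TPM in the control maxillary process and 4.16 ± 0.687 TPM in the wild-type palatal shelf. Esm1, a proteoglycan marker of tip cells, was at 3.82 ± 1.16 TPM in the control maxillary process and 1.82 ± 0.539 TPM in the wild-type palatal shelf. Esm1 was the least abundant of all 37 on that average, at 2.78 TPM.

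Transcription factors were led by the ETS family and Sox18. Fli1, an ETS factor, was at 46.8 ± 22.5 TPM in the control maxillary process and 14.02 ± 0.5797 TPM in the wild-type palatal shelf. Ets1, a second ETS factor, which neural crest and other cells also use, was at 31.9 ± 1.203 TPM in the control maxillary process and 34.1 ± 4.84 TPM in the wild-type palatal shelf. Sox18, a SOXF factor of vessels and lymphatics, was at 30.4 ± 1.72 TPM in the control maxillary process and 30.1 ± 1.74 TPM in the wild-type palatal shelf. The SD of Fli1 in the controls was the largest of the 37 in that group. Erg, the ETS factor most restricted to endothelium, was at 9.51 ± 0.968 TPM in the control maxillary process and 25.1 ± 0.9899 TPM in the wild-type palatal shelf. Gata2, a GATA factor of endothelium, blood and neurons, was at 17.7 ± 5.46 TPM in the control maxillary process and 15.2 ± 3.32 TPM in the wild-type palatal shelf. Lmo2, an adaptor that joins TAL and GATA factors, was at 13.1 ± 1.14 TPM in the control maxillary process and 14.4 ± 0.449 TPM in the wild-type palatal shelf. Lmo2 and Tal1 are also used by blood cells. Tal1, a bHLH factor of blood and early endothelium, was at 7.59 ± 1.78 TPM in the control maxillary process and 2.71 ± 0.819 TPM in the wild-type palatal shelf. Sox17, a SOXF factor of arteries, was at 7.95 ± 1.08 TPM in the control maxillary process and 9.07 ± 0.938 TPM in the wild-type palatal shelf. Sox7, the remaining SOXF factor, was at 6.41 ± 1.09 TPM in the control maxillary process and 7.29 ± 0.653 TPM in the wild-type palatal shelf. Sox7 and Sox17 were below Sox18 in both tissues. Klf2, a factor induced by laminar flow, was at 6.96 ± 0.538 TPM in the control maxillary process and 11.02 ± 5.05 TPM in the wild-type palatal shelf.

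The genes of vessel function were at low to middle levels. Rasip1, a Ras-interacting protein needed for vessel lumens, was at 17.3 ± 1.35 TPM in the control maxillary process and 18.6 ± 0.509 TPM in the wild-type palatal shelf. Ecscr, an endothelial surface protein of cell migration, was at 14.4 ± 1.93 TPM in the control maxillary process and 19.9 ± 0.7202 TPM in the wild-type palatal shelf. Nos3, endothelial nitric oxide synthase, was at 4.81 ± 0.699 TPM in the control maxillary process and 5.62 ± 0.677 TPM in the wild-type palatal shelf. Vwf and Thbd had the lowest levels of the 37 in the control maxillary process. Vwf, the platelet-binding clotting protein stored in endothelial granules, was at 1.99 ± 0.795 TPM in the control maxillary process and 6.97 ± 1.54 TPM in the wild-type palatal shelf. Thbd, thrombomodulin, the endothelial cofactor that turns thrombin towards protein C activation, was at 2.103 ± 0.763 TPM in the control maxillary process and 11.8 ± 4.203 TPM in the wild-type palatal shelf.

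Sequences before the transcription start were available in a RefSeq table (build GRCm38.p6) for 19 of the 37 genes. They are shown for 6 genes whose difference between control and cKO-labelled libraries lies at the ends of the range. Clec14a, Flt1 and Eng had the largest differences of those with an entry other than Flt4, Klf2 had the smallest p of those with an entry, and Apln and Esm1 had differences near 0. Each run is written 5′ to 3′ on the gene's strand and covers the 250 bases before the RefSeq start, or the first 200 of them for Clec14a and Klf2, where GENCODE starts the gene further upstream. Capitals mark GGAAG, the core bound by ETS factors, or its reverse complement CTTCC, and in Klf2 the letters TAAATTTA, the centre of a MEF2-type site.
Clec14a (chr12:58269309-58269508, minus strand): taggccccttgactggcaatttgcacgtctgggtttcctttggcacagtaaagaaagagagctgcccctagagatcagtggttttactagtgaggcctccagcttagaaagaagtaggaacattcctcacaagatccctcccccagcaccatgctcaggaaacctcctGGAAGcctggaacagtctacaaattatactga
Flt1 (chr5:147726012-147726261, minus strand): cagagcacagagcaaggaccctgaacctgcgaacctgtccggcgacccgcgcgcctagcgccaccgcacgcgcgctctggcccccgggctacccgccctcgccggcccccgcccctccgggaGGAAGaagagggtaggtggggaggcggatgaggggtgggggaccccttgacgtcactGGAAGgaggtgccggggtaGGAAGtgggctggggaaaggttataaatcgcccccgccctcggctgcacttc
Eng (chr2:32646345-32646594, plus strand): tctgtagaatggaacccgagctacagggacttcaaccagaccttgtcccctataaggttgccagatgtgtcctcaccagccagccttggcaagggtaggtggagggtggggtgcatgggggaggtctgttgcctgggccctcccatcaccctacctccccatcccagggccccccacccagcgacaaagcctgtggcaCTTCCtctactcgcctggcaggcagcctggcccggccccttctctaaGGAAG
Klf2 (chr8:72318812-72319011, plus strand): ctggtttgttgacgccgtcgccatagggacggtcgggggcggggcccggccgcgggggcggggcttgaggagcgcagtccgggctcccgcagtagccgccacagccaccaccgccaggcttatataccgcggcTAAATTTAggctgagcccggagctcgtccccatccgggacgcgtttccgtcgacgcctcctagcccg
Apln (chrX:48034854-48035103, minus strand): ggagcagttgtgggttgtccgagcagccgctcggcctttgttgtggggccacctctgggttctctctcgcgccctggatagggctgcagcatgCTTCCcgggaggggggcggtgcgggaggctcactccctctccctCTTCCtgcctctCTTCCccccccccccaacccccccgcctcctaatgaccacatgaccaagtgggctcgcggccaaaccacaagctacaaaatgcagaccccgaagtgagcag
Esm1 (chr13:113209409-113209658, plus strand): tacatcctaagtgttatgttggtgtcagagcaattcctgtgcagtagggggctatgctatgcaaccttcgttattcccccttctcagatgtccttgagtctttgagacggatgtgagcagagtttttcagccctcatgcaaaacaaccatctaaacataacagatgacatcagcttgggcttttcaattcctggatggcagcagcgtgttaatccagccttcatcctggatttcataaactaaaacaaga

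The promoter shown for Flt1 held 3 ETS cores, that of Eng 2, that of Apln 3 and that of Clec14a 1. Those of Esm1 and Klf2 held none, and TAAATTTA was marked in Klf2 alone. On either strand the core GGAAG was in 12 of the 19 promoters (63.2%) and in 63.6% of all 27025 promoters of the table, a share close to theirs. The longer form AGGAAGT, which contains the core, was in 3 of the 19 (15.8%; Egfl7, Eng and Flt1) and in 7.8% of all. TAAATTTA was in 0.529% of all promoters and in 1 of the 19 (Klf2). The cyclic AMP response element TGACGTCA was in 1.62% of all promoters and, among the 19, in Flt1, where it can be read just before the middle ETS core. AGATAAG (for GATA factors) and AACAATG (for SOX factors) were in 0 of the 19 windows, against 2.78% and 3.36% of all. A match is a run of letters in this window and not evidence of binding.

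The first comparison asked how gene levels in the maxillary process differ between Srsf3fl/fl embryos with and without Wnt1-Cre. Endothelial genes were higher in the libraries labelled cKO almost throughout: the log2 fold change was above 0 for 36 of 37, with a median of 0.74, whereas 50.7% of all 14254 genes tested were above 0 and their median was 0.00. Thbd alone passed a false discovery rate (FDR, the Benjamini-Hochberg adjusted p over all genes tested) of 0.05 in edgeR's quasi-likelihood test, and it rose by 2.39 on the log2 scale. The background of genes called at that FDR was 0.0842% in either direction and 0.0561% for higher calls. At an unadjusted p under 0.05, 29 of the 37 were higher and 0 lower, where 6.34% of all genes were higher and 5.91% lower. The values of both groups did not overlap for 26 of the 37, all higher, where 8.76% of all genes were higher and 9.37% lower without overlap. The 29 genes below that p are described by role, and those other than Thbd did not pass the FDR.

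**Figure D2:**
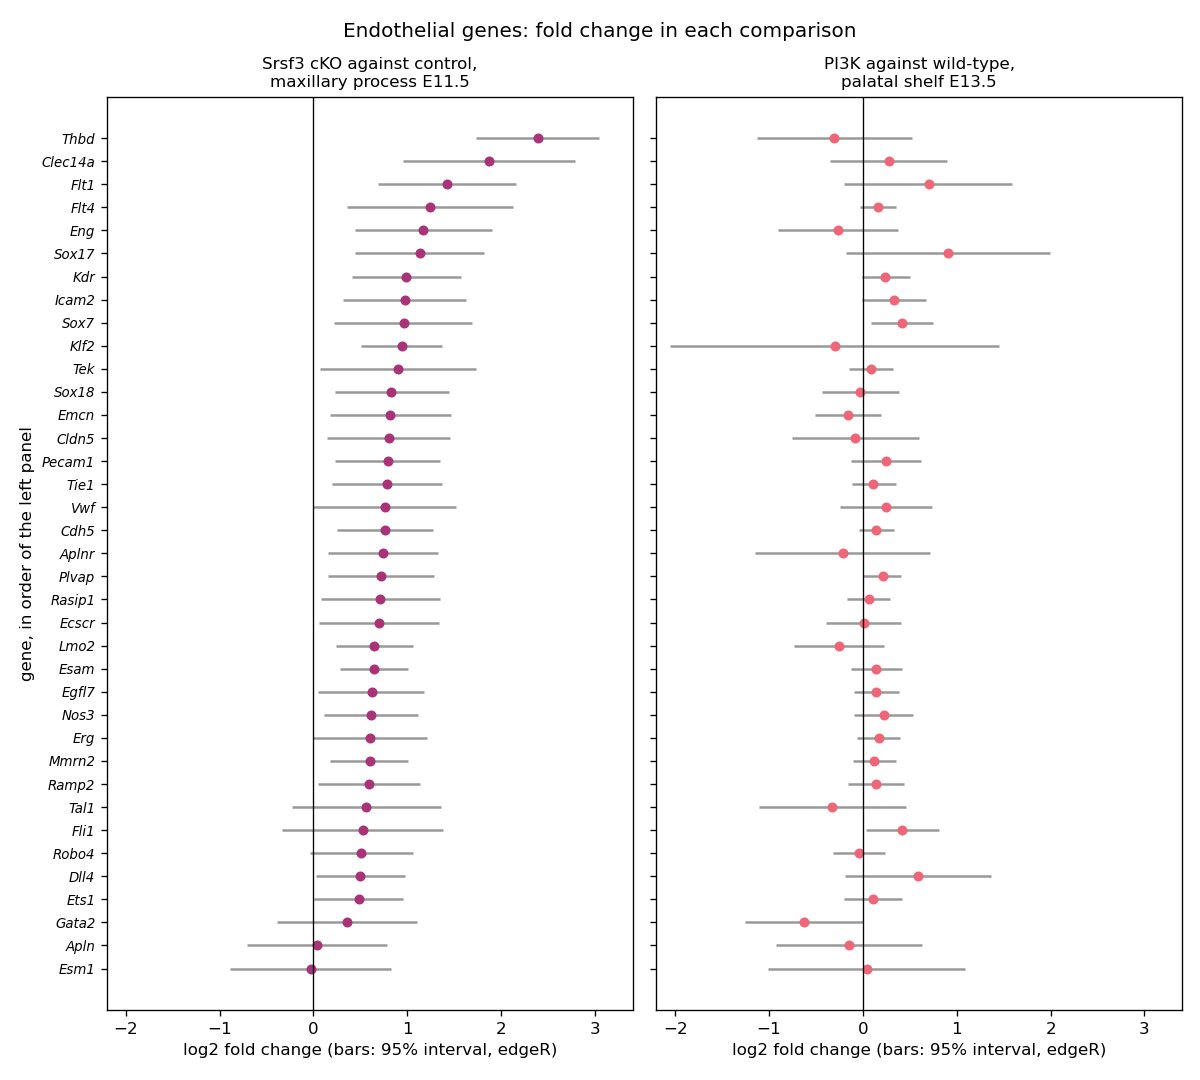
Log2 fold change (points) with its 95% interval from edgeR (bars) for each of the 37 endothelial genes, in the maxillary process (left; libraries labelled cKO over control) and the palatal shelf (right; PI3K over wild-type), ordered by the left panel. Points on the left run from -0.03 (Esm1) to 2.39 (Thbd), and those on the right lie on both sides of 0.

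All 7 junction and surface genes were below an unadjusted p of 0.05 and did not overlap between the groups, with a median log2 fold change of 0.79. Icam2 was at 5.802, 5.39 and 6.98 CPM in controls and 17.1, 8.69 and 10.1 CPM under the cKO label, a log2 fold change of 0.98 (SE 0.28). Emcn was at 24.4, 23.2 and 18.9 CPM in controls and 57.2, 34.7 and 25.9 CPM under the cKO label, a log2 fold change of 0.82 (SE 0.28). Cldn5 was at 15.5, 16.7 and 14.1 CPM in controls and 38.9, 24.4 and 16.97 CPM under the cKO label, a log2 fold change of 0.80 (SE 0.28). In each of these library 1 labelled cKO was the highest of the 6. Pecam1 was at 46.2, 48.5 and 47.1 CPM in controls and 118, 62.1 and 65.4 CPM under the cKO label, a log2 fold change of 0.79 (SE 0.24). Cdh5 was at 98.2, 105 and 111 CPM in controls and 246, 155 and 131 CPM under the cKO label, a log2 fold change of 0.76 (SE 0.22). Plvap was at 53.2, 59.4 and 45.1 CPM in controls and 122, 75.05 and 63.5 CPM under the cKO label, a log2 fold change of 0.72 (SE 0.24). The 3 controls of Pecam1 lay close together, from 46.2 to 48.5 CPM, whereas the libraries labelled cKO ranged from 62.1 to 118 CPM. Esam was at 12.8, 12.2 and 13.3 CPM in controls and 24.02, 18.1 and 17.8 CPM under the cKO label, a log2 fold change of 0.64 (SE 0.16). Adjusted p over the 7 ran from 0.2494 to 0.3574 (edgeR).

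The receptors had the largest differences as a group, with a median of 0.94 and 9 of 10 below an unadjusted p of 0.05. Clec14a (ENSMUSG00000045930.3; chr12:58264720-58269290, minus strand) was at 6.301, 7.18 and 5.18 CPM in controls and 38.2, 15.1 and 14.9 CPM under the cKO label, a log2 fold change of 1.87 (SE 0.39), and adjusted p was 0.1739 (edgeR). Flt1 (ENSMUSG00000029648.13; chr5:147561604-147726011, minus strand) was at 34.3, 30.5 and 28.7 CPM in controls and 130.0, 51.8 and 69.2 CPM under the cKO label, a log2 fold change of 1.42 (SE 0.32), and adjusted p was 0.1976 (edgeR). Flt4 was at 33.1, 28.6 and 29.7 CPM in controls and 123, 51.6 and 41.5 CPM under the cKO label, a log2 fold change of 1.24 (SE 0.38). The lowest library labelled cKO was above the highest control in all 3 of these genes. Kdr was at 77.6, 80.4 and 74.6 CPM in controls and 226, 118 and 118 CPM under the cKO label, a log2 fold change of 0.99 (SE 0.25). Eng was at 33.4, 34.1 and 32.5 CPM in controls and 119.7, 54.05 and 51.6 CPM under the cKO label, a log2 fold change of 1.17 (SE 0.31). Tek was at 17.9, 17.9 and 16.3 CPM in controls and 53.98, 23.3 and 19.98 CPM under the cKO label, a log2 fold change of 0.90 (SE 0.36). All 3 receptors for vascular endothelial growth factors, Kdr, Flt1 and Flt4, were thus among the higher ones, with library 1 labelled cKO well above libraries 2 and 3. Tie1 was at 37.4, 32.6 and 33.5 CPM in controls and 84.8, 52.6 and 40.7 CPM under the cKO label, a log2 fold change of 0.78 (SE 0.25). Aplnr was at 52.97, 47.9 and 45.9 CPM in controls and 113, 80.05 and 51.6 CPM under the cKO label, a log2 fold change of 0.74 (SE 0.25). Ramp2 was at 16.2, 17.8 and 14.3 CPM in controls and 30.5, 26.3 and 16.04 CPM under the cKO label, a log2 fold change of 0.59 (SE 0.23). The groups overlapped for Aplnr and Ramp2 and did not overlap for Tie1. Robo4 missed the unadjusted threshold and ranged from 11.8 to 17.9 CPM in the controls and from 16.8 to 28.7 CPM in the libraries labelled cKO. The remaining 7 genes below that threshold had adjusted p from 0.2596 to 0.3845 (edgeR).

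The secreted and presented factors differed least, with a median of 0.50 and 3 of 5 genes below an unadjusted p of 0.05. Egfl7 was at 32.6, 27.6 and 20.9 CPM in controls and 55.95, 35.9 and 32.3 CPM under the cKO label, a log2 fold change of 0.62 (SE 0.24). Mmrn2 was at 22.2, 19.3 and 19.8 CPM in controls and 39.5, 27.7 and 25.7 CPM under the cKO label, a log2 fold change of 0.60 (SE 0.18). Dll4 was at 7.299, 10.2 and 7.39 CPM in controls and 10.1, 13.48 and 11.6 CPM under the cKO label, a log2 fold change of 0.50 (SE 0.20). Only Mmrn2 of these 3 had groups that did not overlap, and for Dll4 library 2 labelled cKO was the highest of the 6. Apln and Esm1 missed that threshold and overlapped. Apln ranged from 8.24 to 9.50 CPM in the controls and was at 13.8, 6.72 and 6.18 CPM in the libraries labelled cKO. Esm1 ranged from 3.48 to 5.72 CPM in the controls and from 2.77 to 6.51 CPM in the others, and its log2 fold change of -0.03 was the single negative one. The fold change of Apln was 0.04, and that of Dll4 was 0.50, or 0.60 without library 1 labelled cKO. Adjusted p of Egfl7, Mmrn2 and Dll4 ran from 0.2947 to 0.388 (edgeR).

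Among the transcription factors 6 of 10 were below an unadjusted p of 0.05, with a median of 0.63 over the 10. Klf2 (ENSMUSG00000055148.7; chr8:72319033-72321656, plus strand) was at 7.11, 7.76 and 6.21 CPM in controls and 14.98, 14.4 and 11.002 CPM under the cKO label, a log2 fold change of 0.94 (SE 0.18), and adjusted p was 0.1477 (edgeR). Sox17 was at 4.87, 5.504 and 5.67 CPM in controls and 17.1, 10.04 and 7.94 CPM under the cKO label, a log2 fold change of 1.13 (SE 0.30). Sox7 was at 10.2, 14.4 and 12.1 CPM in controls and 35.4, 21.2 and 14.6 CPM under the cKO label, a log2 fold change of 0.96 (SE 0.31). Klf2 had the smallest p after Thbd, and its libraries labelled cKO lay close together. Sox18 was at 25.5, 28.5 and 25.2 CPM in controls and 69.1, 39.2 and 33.1 CPM under the cKO label, a log2 fold change of 0.83 (SE 0.26). Lmo2 was at 10.9, 12.1 and 9.05 CPM in controls and 17.7, 18.6 and 13.8 CPM under the cKO label, a log2 fold change of 0.65 (SE 0.18). Ets1 was at 90.96, 94.3 and 88.2 CPM in controls and 173, 110.3 and 97.6 CPM under the cKO label, a log2 fold change of 0.48 (SE 0.20). All 3 SOXF factors were thus higher by 0.83 to 1.13. Erg did not overlap between the groups, at 10.6 to 13.1 CPM in the controls and 13.9 to 26.5 CPM in the libraries labelled cKO, and its unadjusted p of 0.05008 just missed. Fli1, Tal1 and Gata2 had overlapping groups and fold changes of 0.53, 0.56 and 0.36. The control values of Fli1 were spread over 91.7, 66.9 and 36.2 CPM and those of Gata2 over 27.2, 17.1 and 10.7 CPM. Other than Klf2, the factors below the unadjusted threshold had adjusted p from 0.2749 to 0.4053 (edgeR).

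Thbd stood out among the genes of vessel function, and which cells made it was not tested. Thbd (ENSMUSG00000074743.4; chr2:148404466-148408188, minus strand) was at 6.18, 2.84 and 4.64 CPM in controls and 28.3, 21.6 and 21.5 CPM under the cKO label, a log2 fold change of 2.39 (SE 0.28) (95% interval 1.73 to 3.04; edgeR adjusted p = 0.04855). The lowest library labelled cKO was thus above the highest control, and libraries 2 and 3 labelled cKO lay close to library 1. The call sat at the threshold: adjusted p was 0.0583 to 0.1569 with any 1 of the 6 libraries left out, and the fold change then ran from 2.14 to 2.66. DESeq2 gave an adjusted p of 9.132e-14 and the same fold change. Nos3 was at 11.4, 13.6 and 9.59 CPM in controls and 22.4, 15.9 and 14.4 CPM under the cKO label, a log2 fold change of 0.61 (SE 0.21). Ecscr was at 6.86, 7.13 and 7.93 CPM in controls and 17.2, 9.02 and 9.47 CPM under the cKO label, a log2 fold change of 0.70 (SE 0.27). Rasip1 was at 30.3, 35.3 and 30.3 CPM in controls and 78.3, 41.96 and 37.1 CPM under the cKO label, a log2 fold change of 0.71 (SE 0.27). These 3 genes did not overlap between the groups and had adjusted p from 0.357 to 0.382 (edgeR). Vwf overlapped, at 6.37 to 9.77 CPM in the controls and 8.87 to 20.5 CPM in the libraries labelled cKO, with an unadjusted p of 0.05023.

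**Figure D3:**
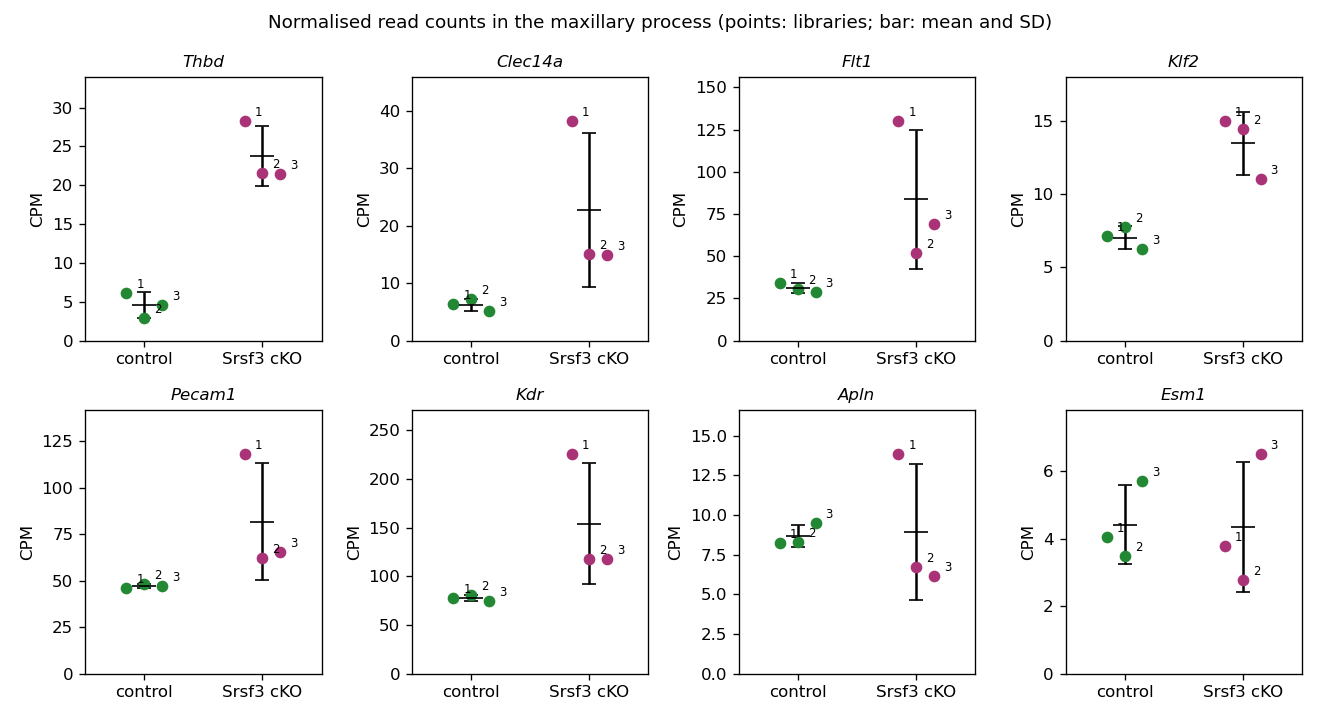
CPM (y axis) of 8 endothelial genes in each control library and each library labelled cKO of the maxillary process (points, numbered by replicate), with the mean and SD of each group of 3 (bars). For Thbd the 3 libraries labelled cKO lie together, from 21.5 to 28.3 CPM, whereas for Clec14a and Flt1 library 1 labelled cKO lies above the other 2.

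The size of these differences depended on 1 library. Library 1 labelled cKO was the highest of the 6 in 34 of the 37 genes, where 25.8% of all genes had their highest value in it. Its median log2 ratio to the control mean was 1.23 over the 37, against 0.52 in library 2 and 0.33 in library 3. The direction was also present in the other 2: library 2 lay above the highest control in 31 genes and library 3 in 29. With library 1 left out, 36 of 37 fold changes were above 0 with a median of 0.43, and 22 genes were higher and 1 lower at an unadjusted p under 0.05, where 5.4% of the 14519 genes then tested were higher. The lower gene was Apln, at -0.43. In that fit the log2 fold change was 2.25 for Thbd, 1.27 for Clec14a, 0.96 for Flt1, 0.86 for Klf2, 0.75 for Sox17, 0.66 for Eng and 0.61 for Kdr, and no gene of the 37 passed the FDR (lowest edgeR adjusted p 0.05569, for Kdr). With control library 3 left out instead, 18 of the 37 were higher at that p, where 5.22% of all genes were, and the median was 0.72.

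Endothelial genes outside the 37 moved alongside them. Of 24 further endothelial genes, 23 were tested and all 23 had a positive fold change with a median of 0.72. At an unadjusted p under 0.05, 15 were higher, where 6.34% of all genes were, and 0 passed the FDR. The 4 with the lowest p were Cyyr1 (0.79), Myct1 (0.87), Acvrl1, a receptor for bone morphogenetic proteins (1.14), and Cd93, a partner of Mmrn2 (0.80). Without library 1 labelled cKO, 21 of the 23 were positive with a median of 0.41. Of them 12 were higher at that p, where 5.4% of all genes were. Of 8 arterial, venous and lymphatic genes tested, 5 were higher at an unadjusted p under 0.05 and 0 passed the FDR. The lymphatic factor Prox1 was at 1.25, 0.521 and 0.766 CPM in controls and 14.5, 4.16 and 3.17 CPM under the cKO label (log2 fold change 3.11). The scavenger receptor gene Stab2 was at 0.624, 0.521 and 0.586 CPM in controls and 5.58, 0.949 and 1.31 CPM under the cKO label (2.16). Library 1 labelled cKO was far above the other 2 for both, and without it the fold changes were 2.13 and 0.96. The venous factor Nr2f2 averaged 37.3 and 100.3 CPM (1.43, or 0.87 without that library), and the arterial connexin gene Gja4 4.54 and 7.51 CPM (0.73, or 0.89). Without that library 5 of 8 genes of the list were higher at an unadjusted p under 0.05 and the median was 0.80. Prox1 and Nr2f2 are also made by cells other than endothelium.

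Vessel signalling partners, made by other cells or shared with the endothelium, were examined as a list of 27 ligands, receptors and mediators. Of 26 tested, 18 had a positive fold change and the median was 0.37. At an unadjusted p under 0.05, 6 were higher and 1 lower, where 6.34% of all genes were higher and 5.91% lower. Of the list 0 passed the FDR. The 4 with the lowest p were Epas1, a hypoxia-inducible factor of endothelium (0.72), Ackr3, a scavenging receptor for Cxcl12 (-0.56), Notch1, the receptor for Dll4 (0.76), and Pgf, placental growth factor, which binds Flt1 (2.34). Pgf was at 0.873, 0.985 and 1.76 CPM in controls and 13.85, 2.15 and 2.63 CPM under the cKO label, and without library 1 labelled cKO its fold change was 0.97 (edgeR adjusted p = 0.4202). Without library 1 labelled cKO, 15 of 27 tested were positive with a median of 0.02, and 4 were higher and 2 lower at that p.

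Other cell types moved in the same libraries, and their part in the endothelial values was not tested. Of all genes tested, 6.34% were higher and 5.91% lower at an unadjusted p under 0.05, and 5.4% were higher without library 1 labelled cKO. Macrophage markers summed to 36.4 to 41.2 TPM in the controls and 45.0 to 78.2 TPM in the libraries labelled cKO, 12 of 13 tested were positive and 3 were higher at an unadjusted p under 0.05. Red blood cell and platelet genes summed to 11590 to 19540 TPM and 11890 to 33400 TPM, with none of 13 below that p. Pericyte and smooth muscle genes, which mark the cells that coat vessels, summed to 135 to 166 TPM and 123 to 272 TPM, with 2 of 9 tested higher. Red blood cell, pericyte and macrophage sums were all highest in library 1 labelled cKO. Facial mesenchyme genes summed to 2654 to 3974 TPM in the controls and 2159 to 2797 TPM in the libraries labelled cKO, with 3 of 10 lower at an unadjusted p under 0.05. Ectoderm genes summed to 1.66 to 7.74 TPM and 9.36 to 18.1 TPM. Without library 1 labelled cKO the median fold change was 0.43 for the 37 endothelial genes. It was then 1.78 for ectoderm (7 of 7 tested positive, 4 higher at an unadjusted p under 0.05), 0.26 for macrophages and 0.14 for skeletal muscle. It was -0.05 for pericytes, -0.11 for the red blood cell and platelet list, -0.24 for facial mesenchyme and -1.14 for neurons and glia (0 of 7 positive, 3 lower at that p).

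**Figure D4:**
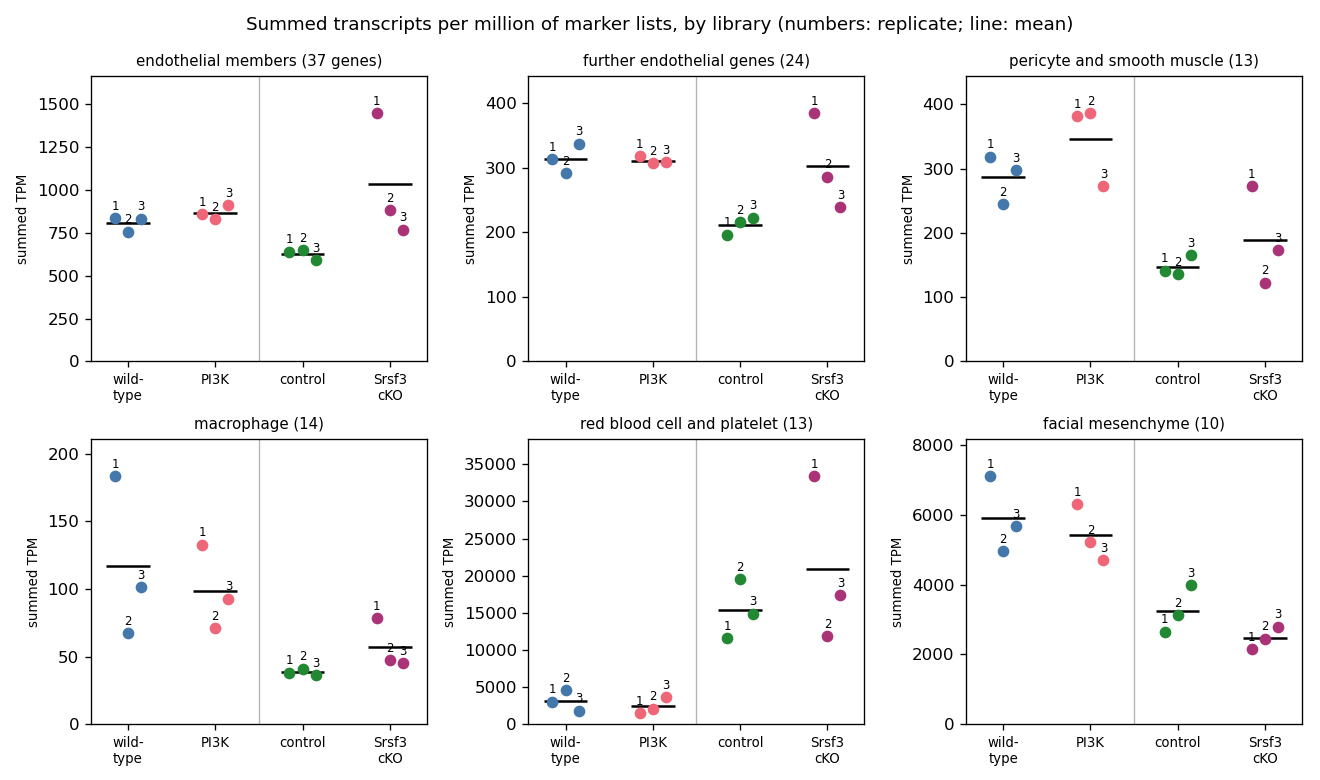
Summed TPM of the 37 endothelial genes and of marker lists of other cell types in each of the 12 libraries (points), by group. The endothelial sums of the 3 libraries labelled cKO, 768 to 1448 TPM, lie above those of the controls, 591 to 651 TPM, while the wild-type and PI3K sums overlap.

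The second comparison asked how the palatal shelf differs with the PI3K allele of Pdgfra. Between wild-type and PI3K libraries 0 of the 37 endothelial genes passed the FDR of 0.05 with edgeR, 0 did with DESeq2, and 4 were below an unadjusted p of 0.05 (3 higher, 1 lower). The background called at that FDR was 0.0% with edgeR and 0.0303% with DESeq2, so that the count of 0 says nothing particular about these genes, and 2.14% of all 16525 genes tested were below that p, 1.53% higher and 0.611% lower. Fold changes were positive for 25 of 37 with a median of 0.12, where 48.0% of all genes were positive with a median of -0.01. The groups did not overlap for 8 of the 37, all higher in PI3K (Cdh5, Icam2, Plvap, Flt4, Egfl7, Sox7, Erg and Fli1), against 3.12% of all genes. Every fold change among those 8 was 0.42 or less.

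The 4 genes below the unadjusted threshold were factors and a surface gene. Sox7 was at 12.1, 13.9 and 13.9 CPM in the wild-type and 16.2, 20.6 and 16.7 CPM in the PI3K shelves, a log2 fold change of 0.42 (SE 0.14). Fli1 was at 25.8, 21.1 and 22.5 CPM in the wild-type and 27.5, 26.8 and 38.5 CPM in the PI3K shelves, a log2 fold change of 0.42 (SE 0.17). Plvap was at 46.1, 45.2 and 44.2 CPM in the wild-type and 52.3, 48.2 and 55.9 CPM in the PI3K shelves, a log2 fold change of 0.21 (SE 0.09). All 3 PI3K values lay above all wild-type values in these 3 genes. Gata2 was at 14.7, 12.1 and 17.04 CPM in the wild-type and 13.3, 8.22 and 6.79 CPM in the PI3K shelves, a log2 fold change of -0.63 (SE 0.27). The groups overlapped for Gata2, since PI3K library 1 was above wild-type library 2. Adjusted p was 0.9997 for each of these 4 genes (edgeR).

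The defining markers gave the same picture of small and mixed differences, apart from Flt1. Pecam1 was at 73.6, 61.2 and 76.5 CPM in the wild-type and 74.8, 104 and 72.8 CPM in the PI3K shelves, a log2 fold change of 0.25 (SE 0.16). Cdh5 was at 162, 143 and 155 CPM in the wild-type and 164, 172 and 172 CPM in the PI3K shelves, a log2 fold change of 0.14 (SE 0.08). Kdr was at 79.6, 74.05 and 86.04 CPM in the wild-type and 85.5, 106 and 92.2 CPM in the PI3K shelves, a log2 fold change of 0.24 (SE 0.11). Of these 3, Cdh5 alone had groups that did not overlap. Tek was at 31.1, 28.1 and 32.5 CPM in the wild-type and 32.3, 34.5 and 30.6 CPM in the PI3K shelves, a log2 fold change of 0.09 (SE 0.10). Tie1 was at 52.4, 52.8 and 57.4 CPM in the wild-type and 52.8, 59.04 and 64.2 CPM in the PI3K shelves, a log2 fold change of 0.11 (SE 0.10). Emcn was at 35.4, 26.7 and 30.6 CPM in the wild-type and 25.1, 25.4 and 32.3 CPM in the PI3K shelves, a log2 fold change of -0.16 (SE 0.15). Emcn was lower on average and its groups overlapped. Cldn5 was at 18.04, 17.7 and 13.3 CPM in the wild-type and 19.2, 8.92 and 18.3 CPM in the PI3K shelves, a log2 fold change of -0.08 (SE 0.29). Flt1 was at 40.8, 35.4 and 54.3 CPM in the wild-type and 44.9, 119 and 48.4 CPM in the PI3K shelves, a log2 fold change of 0.70 (SE 0.38). Without PI3K library 2 the fold change of Flt1 was 0.10 and that of Cldn5 turned to 0.20. Adjusted p was 0.9997 for all 8 (edgeR).

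PI3K library 2 stood apart from the other 5 palatal shelf libraries over all genes, of which 25.9% had their highest and 26.4% their lowest value in it. Of the 37 endothelial genes it was the highest of the 6 in 13 and the lowest in 10, shares not far from those of all genes. The genes below are named after their values were seen. Sox17 was at 20.8 CPM in that library and at 5.29 to 7.43 CPM in the other 5, Dll4 at 19.7 and 7.31 to 10.2 CPM, and Flt1 at 119 and 35.4 to 54.3 CPM. Esm1 was at 3.55 CPM there and at 1.27 to 2.7035 CPM elsewhere. Among those low there, the flow-induced factor Klf2 was at 1.22 CPM against 7.32 to 16.7 CPM, Aplnr at 23.6 against 65.1 to 83.9 CPM, Eng at 35.8 against 54.6 to 77.5 CPM and Cldn5 at 8.92 against 13.3 to 19.2 CPM. On the log2 scale Kdr, Tie1, Cdh5 and Flt4 in that library were 0.35, 0.08, 0.12 and 0.10 above the mean of the other 5. Pecam1 (0.53), Clec14a (0.54) and Icam2 (0.41) were further above it. Kdr, Cdh5, Pecam1, Clec14a and Icam2 were the highest of the 6 there. Without PI3K library 2, 27 of 37 fold changes were positive with a median of 0.12, and 3 were higher at an unadjusted p under 0.05 (Plvap, Sox7 and Fli1), where 1.72% of all genes were.

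The other endothelial and vessel lists in the palatal shelf had small medians, and skeletal muscle genes a large one. Of all genes tested there, 1.53% were higher and 0.611% lower at an unadjusted p under 0.05. The 23 further endothelial genes tested had a median of 0.03, with 1 higher at an unadjusted p under 0.05 and 0 past the FDR. The 27 vessel signalling partners had a median of 0.14, with 1 higher (Pgf, 0.54) and 0 past the FDR. Vegfa, the main ligand of Kdr, is among them and is named after its values were seen. It was at 77.03, 78.1 and 115.7 CPM in the wild-type and 85.3, 358.7 and 81.6 CPM in the PI3K shelves (log2 fold change 0.96, SE 0.57; edgeR adjusted p = 0.9997). The highest level of this ligand was thus in PI3K library 2. Macrophage markers had a positive fold change in 1 of 14 and summed to 67.5 to 183 TPM in wild-type and 70.9 to 133 TPM in PI3K. All 10 skeletal muscle genes had a positive fold change with a median of 2.63, 5 of them at an unadjusted p under 0.05 and 0 past the FDR, and they summed to 10.4 to 83.2 TPM in wild-type and 51.9 to 355 TPM in PI3K libraries. Neuron and glia genes had a median of 0.55 and ectoderm genes one of -0.04. The part of these cells in the endothelial values was not tested.

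Since the series concerns splicing, the effective length of each gene was also compared. It is the estimated count divided by TPM, centred on the median gene of the library, on the log2 scale, and it moves when the mix of long and short transcripts of a gene moves. Between control libraries and those labelled cKO, 36 of the 37 genes could be tested and 0 passed the FDR or an unadjusted p of 0.05 (limma), where 0.00909% and 4.81% of all 11002 genes did. Between wild-type and PI3K, 35 were tested and 0 passed either threshold, where 0.00775% and 3.72% of all genes did. Differences ran from -0.40 (Tal1) to 0.22 (Mmrn2) in the former and from -0.17 (Gata2) to 0.09 (Tal1) in the latter. No change of effective length was therefore detectable for these genes at this number of libraries. Gene totals do not show exon use, and splice junctions were not analysed here.

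The third comparison set the wild-type palatal shelf at E13.5 against the control maxillary process at E11.5, the tissue from which the shelf grows. Tissue, stage, the floxed Srsf3 background and library depth differ together, as would any sequencing batch, and cannot be told apart. Of the 37 genes 18 passed the FDR of 0.05 in edgeR, 14 higher and 4 lower in the palatal shelf. The background was 50.6% of the 15752 genes tested, 27.1% higher and 23.4% lower, so that the share of endothelial genes called (18 of 37) was near that of any genes. The median log2 fold change was 0.24 against 0.03 over all genes. Of the 14 higher genes 6 were receptors and 4 junction and surface genes, and of the 4 lower genes 3 were transcription factors.

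Clotting genes had the largest increases. Thbd had 6.53, 2.97 and 4.75 CPM in the maxillary process and 33.03, 15.5 and 23.2 CPM in the palatal shelf, a log2 fold change of 2.33 (SE 0.35). Vwf had 8.31, 6.67 and 10.01 CPM in the maxillary process and 25.6, 22.1 and 37.9 CPM in the palatal shelf, a log2 fold change of 1.77 (SE 0.24). The groups were separate for both genes, and in TPM Thbd and Vwf had the lowest means of the 37 in the control maxillary process. Clec14a had 6.66, 7.52 and 5.31 CPM in the maxillary process and 24.9, 13.2 and 22.9 CPM in the palatal shelf, a log2 fold change of 1.65 (SE 0.26). Ramp2 had 17.1, 18.6 and 14.6 CPM in the maxillary process and 37.4, 33.4 and 30.9 CPM in the palatal shelf, a log2 fold change of 1.01 (SE 0.13). Eng had 35.4, 35.7 and 33.3 CPM in the maxillary process and 74.7, 53.1 and 75.6 CPM in the palatal shelf, a log2 fold change of 0.96 (SE 0.14). These 3 receptors rose, and their groups did not overlap. Tek had 18.9, 18.7 and 16.7 CPM in the maxillary process and 30.4, 27.4 and 31.8 CPM in the palatal shelf, a log2 fold change of 0.72 (SE 0.11). Tie1 had 39.6, 34.1 and 34.3 CPM in the maxillary process and 51.3, 51.4 and 56.01 CPM in the palatal shelf, a log2 fold change of 0.56 (SE 0.10). Aplnr had 56.01, 50.1 and 47.02 CPM in the maxillary process and 65.2, 70.4 and 63.5 CPM in the palatal shelf, a log2 fold change of 0.38 (SE 0.09). Tek and its relative Tie1 thus both rose. Adjusted p over these 8 genes ran from 0.0008249 to 0.01219 (edgeR), and Aplnr missed the FDR without control library 2 (adjusted p = 0.06122).

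Of the junction and surface genes 4 rose. Cdh5 had 104, 110.2 and 114 CPM in the maxillary process and 158, 139 and 151 CPM in the palatal shelf, a log2 fold change of 0.45 (SE 0.08). Pecam1 had 48.9, 50.7 and 48.3 CPM in the maxillary process and 71.98, 59.6 and 74.7 CPM in the palatal shelf, a log2 fold change of 0.48 (SE 0.10). Esam had 13.6, 12.8 and 13.6 CPM in the maxillary process and 20.1, 19.5 and 17.5 CPM in the palatal shelf, a log2 fold change of 0.51 (SE 0.11). Their groups did not overlap. Icam2 had 6.13, 5.64 and 7.15 CPM in the maxillary process and 9.803, 8.68 and 9.23 CPM in the palatal shelf, a log2 fold change of 0.55 (SE 0.16). Icam2 missed the FDR in 4 of the 6 fits that leave out 1 library, with adjusted p of 0.07385 without wild-type library 1, 0.07659 without wild-type library 3, 0.07422 without control library 1 and 0.1035 without control library 2. Emcn had 25.9, 24.3 and 19.4 CPM in the maxillary process and 34.6, 26.03 and 29.8 CPM in the palatal shelf, a log2 fold change of 0.38 (SE 0.15). Plvap had 56.3, 62.2 and 46.2 CPM in the maxillary process and 45.1, 44.01 and 43.1 CPM in the palatal shelf, a log2 fold change of -0.32 (SE 0.12). Cldn5 had 16.4, 17.5 and 14.4 CPM in the maxillary process and 17.6, 17.2 and 13.02 CPM in the palatal shelf, a log2 fold change of -0.01 (SE 0.16). Emcn and Plvap missed the FDR (adjusted p = 0.06779 and 0.05548, edgeR), and Plvap was lower in the palatal shelf with groups that did not overlap. Emcn passed without wild-type library 2 (0.03386) and Plvap without control library 3 (0.005123). The sign of Cldn5 changed with the scaling (0.05 with the upper quartile).

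Of the secreted factors, the tip cell genes Apln and Esm1 went in opposite directions. Apln had 8.71, 8.67 and 9.74 CPM in the maxillary process and 28.6, 13.7 and 32.5 CPM in the palatal shelf, a log2 fold change of 1.46 (SE 0.30). Esm1 had 4.29, 3.64 and 5.86 CPM in the maxillary process and 1.698, 1.64 and 2.64 CPM in the palatal shelf, a log2 fold change of -1.21 (SE 0.30). Neither gene overlapped between the tissues. Egfl7, Mmrn2 and Dll4 had fold changes of 0.13, 0.03 and -0.08 and overlapped. Among the factors, Erg had 13.8, 13.6 and 10.8 CPM in the maxillary process and 31.6, 28.0 and 30.9 CPM in the palatal shelf, a log2 fold change of 1.24 (SE 0.13). Tal1 had 14.8, 22.4 and 17.1 CPM in the maxillary process and 4.68, 6.82 and 5.08 CPM in the palatal shelf, a log2 fold change of -1.71 (SE 0.22). Fli1 had 96.98, 69.9 and 37.1 CPM in the maxillary process and 25.2, 20.5 and 21.9 CPM in the palatal shelf, a log2 fold change of -1.59 (SE 0.31). Erg thus rose and its relative Fli1 fell, while the control values of Fli1 spread from 37.1 to 97.0 CPM. Ets1 had 96.2, 98.7 and 90.4 CPM in the maxillary process and 72.8, 84.03 and 82.9 CPM in the palatal shelf, a log2 fold change of -0.25 (SE 0.08). The call of Ets1 was lost without any 1 of wild-type libraries 1, 2 and 3 or control libraries 1 and 2 (edgeR adjusted p = 0.1321, 0.05162, 0.08966, 0.07098 and 0.0988) and with upper quartile scaling (0.09755). Reads of Fli1 could be shared with gene models annotated on its strand inside its locus. The SOXF factors Sox7, Sox17 and Sox18, and Lmo2, had fold changes from -0.15 to 0.08. Adjusted p was 0.005754 to 0.01261 for Apln and Esm1 and 0.0004011 to 0.03994 for Erg, Tal1, Fli1 and Ets1 (edgeR).

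The receptors for vascular endothelial growth factors did not differ beyond the FDR. Kdr had 82.1, 84.1 and 76.4 CPM in the maxillary process and 77.9, 72.1 and 83.97 CPM in the palatal shelf, a log2 fold change of -0.05 (SE 0.09). Flt1 had 36.3, 31.9 and 29.4 CPM in the maxillary process and 39.95, 34.5 and 52.97 CPM in the palatal shelf, a log2 fold change of 0.39 (SE 0.17). Flt4 ranged from 29.9 to 35.0 CPM in the maxillary process and from 30.7 to 32.3 CPM in the palatal shelf (-0.01). Their 95% intervals were -0.25 to 0.15 for Kdr, -0.01 to 0.78 for Flt1 and -0.24 to 0.22 for Flt4. The sign of Kdr changed with upper quartile scaling and without wild-type library 2, to 0.01 in each fit. Flt1 passed the FDR without wild-type library 2 (adjusted p = 0.03022, edgeR). With all libraries adjusted p was 0.6379 for Kdr and 0.09197 for Flt1 (edgeR).

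**Figure D5:**
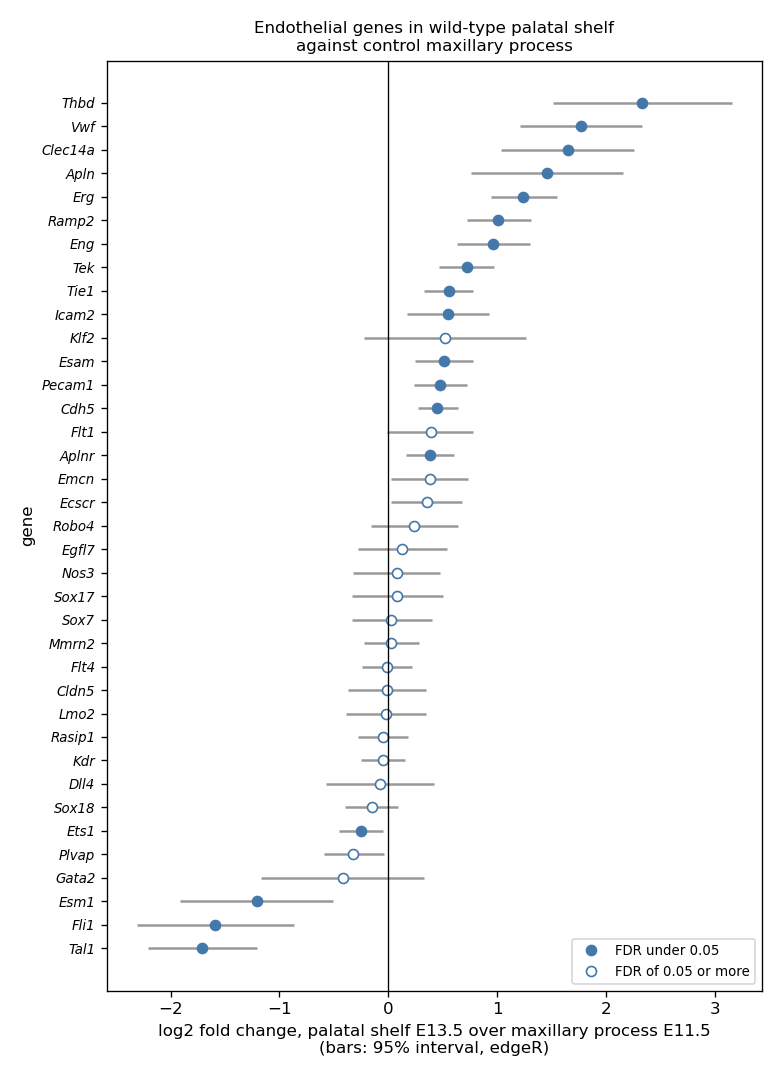
Log2 fold change (points) with its 95% interval from edgeR (bars) for the 37 endothelial genes, wild-type palatal shelf at E13.5 over control maxillary process at E11.5. Filled points pass the FDR of 0.05; Thbd (2.33) and Vwf (1.77) are at the top and Tal1 (-1.71) and Fli1 (-1.59) at the bottom.

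The comparisons share libraries, so that their fold changes are not independent of each other. Control maxillary process libraries enter both the first and the third, and wild-type palatal shelf libraries both the second and the third. Thbd and Clec14a, the genes with the largest fold changes in the first comparison (2.39 and 1.87), had 2.33 and 1.65 in the third. In TPM, Thbd was at 2.10 ± 0.763 in the controls, 10.6 ± 1.67 in the libraries labelled cKO, 11.8 ± 4.20 in wild-type and 9.49 ± 3.93 in PI3K libraries (SD, n = 3 each). Clec14a was at 2.31 ± 0.297, 8.14 ± 4.77, 8.09 ± 2.47 and 9.74 ± 2.03 TPM in the same order. Erg and Vwf had other orders: Erg was at 9.51, 14.2, 25.1 and 27.5 TPM and Vwf at 1.99, 3.01, 6.97 and 8.73 TPM in that order. Library by library, Thbd was at 16.04, 7.644 and 11.59 TPM in wild-type and 14.01, 6.978 and 7.47 TPM in PI3K shelves. Macrophage markers summed to 183.3, 67.46 and 101.2 TPM and to 132.8, 70.88 and 92.93 TPM in these libraries. The 37 endothelial genes summed to 834.6, 757.9 and 833.0 TPM and to 857.2, 831.2 and 912.8 TPM in them. Whether Thbd came from macrophages or endothelium was not tested.

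Cells around the vessels and blood differed strongly between the tissues, and their part in the endothelial values was not tested. Of 12 pericyte and smooth muscle genes tested 9 rose and 1 fell past the FDR in the palatal shelf, with a median of 2.47. Fold changes were 5.62 for Acta2, 4.45 for Rgs5, 4.10 for Myh11 and 3.02 for Cspg4. Their control means were 0.568, 1.38, 0.569 and 7.81 CPM in that order. Ndufa4l2 (10.52, SE 1.79) and Kcnj8 (6.34, SE 0.80) had control means of 0.0 and 0.0202 CPM, so that the size of their fold changes is poorly fixed. All 14 macrophage genes were higher, 11 of them past the FDR, and of 13 red blood cell and platelet genes 12 fell, with a median of -3.88 and sums of 1853 to 4653 TPM against 11590 to 19540 TPM. Ectoderm genes summed to 668 to 869 TPM in the wild-type palatal shelf and 1.66 to 7.74 TPM in the control maxillary process. Of 27 vessel signalling partners 12 rose and 2 fell past the FDR, where 27.1% of all genes rose and 23.4% fell. Those that rose included the Tek ligand Angpt1 (2.27), Vegfa (0.83), Pgf (2.02) and the co-receptor Nrp1 (1.41). The Plxnd1 ligand Sema3e rose by 5.90 from a control mean of 0.63 CPM. Hey2, a Notch target, fell by 4.37 and Bmp4 fell by 1.24. Of 9 arterial, venous and lymphatic genes, Efnb2 (0.48), Gja5 (1.42), Prox1 (4.76) and Lyve1 (5.46) rose and Unc5b fell by 0.78. Lyve1 had a control mean of 0.1473 CPM and an SE of 1.18, so that the size of its fold change is poorly fixed. It was at 12.53, 1.204 and 4.675 CPM in the wild-type palatal shelf, where macrophage markers summed to 183.3, 67.46 and 101.2 TPM. Which cells made Lyve1 was not tested. Of 23 further endothelial genes 9 rose and 1 fell past the FDR, with a median of 0.40. The shares called in the vessel signalling list, the arterial, venous and lymphatic list and this list were near the 50.6% of all genes. Effective length differed past the FDR in 1 of 36 endothelial genes tested, Robo4, by 0.05 (limma), against 7.71% of all genes, and that call was lost when any 1 library was left out. Thbd was not among the 36. At an unadjusted p under 0.05 (limma) there were 9 of the 36, against 28.6% of all genes. Beside Robo4, the value was higher in the palatal shelf for Ramp2 (0.145) and Ecscr (0.062) and lower for Ets1 (-0.166). It was also higher, by a small and similar amount of 0.026 to 0.039, for Cldn5, Sox18, Klf2, Plvap and Esm1. Whether such small shifts reflect the mix of transcripts was not tested.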

How the data were processed

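RNA sequencing of 12 mouse libraries was used, 3 in each of 4 groups. The authors deposited gene-level estimated counts and TPM for each tissue; per the submitters' processing notes, the tools and build were STAR 2.7.0, Salmon 1.1.0, DESeq2 1.28.1 and mm10, with no role or order given. Symbols came from GENCODE M21 (build GRCm38, the same as mm10), with 53355 of 53392 identifiers matched without version. 0 value columns lacked a sample.

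Estimated counts, as deposited, were rounded and tested with edgeR 4.0.16 (R 4.3.3; TMM, filterByExpr, quasi-likelihood test, Benjamini-Hochberg adjustment over all genes, FDR 0.05) on the 6 libraries of each comparison. Effective length, the deposited estimated count over TPM, was tested with limma 3.58.1 for genes with at least 50 counts in all 6 libraries. Alternatives were RLE and upper quartile scaling, other filters, a replicate block, leaving out each library, DESeq2 1.42.0, and limma fits to log2 TPM with a pseudocount of 1 or 0.1. The edgeR and limma steps were tested on simulated data.

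The 37 genes and the marker lists were chosen with earlier results of these data known. Fold changes with tests are printed for genes at an unadjusted p under 0.05 and for the 8 defining markers, and list genes past the FDR or the 4 of lowest p are named. The alternatives for counts at an unadjusted p, and leaving libraries out of the summed TPM, were chosen after seeing the data. The labels do not say whether replicates were separate embryos, litters or pools, so the p-values measure the spread between these samples. Strand use in counting is not given in the sources used here, so reads of overlapping genes (Fli1, Eng, Egfl7, Ramp2 and Rasip1 among the 37) may be shared with their neighbours.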

Additional observations from a re-analysis of the deposited data

How the results depend on the processing

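Of the alternatives tried, 136 of the summary values kept their call or moved little and 27 moved. For single genes 809 fits gave the same call and direction, 21 gained a call, 23 lost one and 9 changed sign. The cause was not tested, except where given. A median or summed TPM counted as moving little where its shift was below the SD between libraries, which library 1 labelled cKO widened. The fall of the median from 0.74 to 0.43 without that library so counted as moving little. A gene uncalled in both fits counted as the same at any size of the same sign. Flt1 between PI3K and wild-type is such a case, at 0.70 and at 0.10 without PI3K library 2. The tally therefore does not show that sizes held. Between cKO-labelled and control libraries, the 1 gene past the FDR (Thbd) became 3 without a count filter (0.609% of all genes called), 11 with DESeq2 (2.5%), 0 with limma on log2(TPM + 1) or log2(TPM + 0.1) (0.0842% and 0.119%) and 0 when any 1 library was left out (0.0137% to 0.2%). Thbd passed in 6 of 14 alternatives, at a log2 fold change of 1.92 to 2.66. Genes at an unadjusted p under 0.05 there ranged from 18 to 30 over the fits with 1 library left out (6.88% to 12.7% of all genes), and the median fold change from 0.43 to 0.91. The log2 ratio of summed TPM was 0.72 there (0.39 to 0.89 with 1 library left out) and 0.10 between PI3K and wild-type (0.06 to 0.13).

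Between PI3K and wild-type the 4 genes at an unadjusted p under 0.05 became 2 with the upper quartile, with a filter of more than 1 CPM and with both limma fits (1.98% to 2.49% of all genes), 7 with DESeq2 (2.5%), and 1 to 6 with 1 library left out (0.931% to 5.66%). Cldn5 ran from -0.25 to 0.20 with 1 library left out. Between the tissues Cldn5 was 0.05 with the upper quartile, 0.01 without a filter, 0.02 with more than 1 CPM and -0.11 to 0.13 with 1 library left out. Kdr was 0.01 with the upper quartile and -0.12 to 0.01 with 1 library left out. The effective length call there (1 gene) became 0 with at least 200 counts, 0 with any 1 library left out and 36 when values were not centred, where depth enters by construction.

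With the replicate block, genes past the FDR were 0 (PI3K), 1 (cKO) and 16 (tissues), against 0.0%, 0.281% and 43.4% of all genes. Genes at an unadjusted p under 0.05 were 3, 31 and 20, against 3.52%, 13.1% and 53.4% of all, and medians were 0.12, 0.67 and 0.25. Deviations of same-numbered libraries correlated at 0.58, 0.21 and -0.23 (PI3K), 0.07, 0.11 and 0.25 (cKO) and -0.17, 0.05 and -0.01 (tissues). Those of different-numbered libraries correlated at -0.61 to 0.46 (PI3K), -0.26 to 0.19 (cKO) and -0.14 to 0.15 (tissues). Deviations from the mean of 3 libraries depend on each other, so these values cannot settle whether the numbers are pairs. The labels give no pairing beyond the number, and the main fits used none. Between the tissues the block ended the calls of Icam2 and Ets1 (edgeR adjusted p = 0.05325 and 0.07352). In the controls Esm1 and Thbd had the lowest CPM of the 37 and so the largest relative counting error.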
